A study of Rattus norvegicus with 65 samples.

Results

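The 11 primary rat mammary tumors of this study were ordered by Pgr, the gene of the progesterone receptor, and the 5 tumors with the highest Pgr were set against the 5 with the lowest. They are 11 of the 65 tumors measured, and the other 54 are transplants that descend from them. Each tumor was profiled on 1 Affymetrix expression array, and each primary tumor founded 1 transplant series whose number names it here. The 5 Pgr-high primary tumors were those of series 17, 33, 34, 32 and 25R, the 5 Pgr-low primary tumors were those of series 19, 13, 10, 36 and 42, and the tumor of series 25L lay between and entered neither group. The groups were chosen by the measured Pgr values and carry no label of the submitters. All primary tumors were induced by a carcinogen, and their transplants were grown in syngeneic hosts. The labels used here name no strain, carcinogen, age or hormone state, and do not say whether series 25L and 25R came from 1 animal. With 1 array per tumor, the spread within a group holds differences between tumors and between arrays, which cannot be told apart.

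The progesterone receptor is a nuclear receptor that is made in luminal hormone-sensing cells of the mammary gland, where estrogen raises its gene. In mice, progesterone acts through these cells on their neighbours by secreted factors, among them the RANK ligand (Tnfsf11) and Wnt4, while estrogen raises amphiregulin (Areg), a ligand of the epidermal growth factor receptor. Prolactin acts through its receptor, the kinase Jak2 and the factors Stat5a and Stat5b on alveolar cells, which make the caseins of milk. Contractile myoepithelial cells, which make smooth muscle actin (Acta2), surround both kinds of luminal cell.

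Pgr declined gradually across the primary tumors, without a step between the groups. Its 1 probe set read 7.98 in the Pgr-high tumor of series 17, 7.96 in 33, 7.61 in 34, 7.41 in 32 and 7.40 in 25R, against 7.08 in the Pgr-low tumor of 19, 6.93 in 13, 6.26 in 10, 5.78 in 36 and 4.46 in 42, all as log2 of the deposited intensity after scaling each array to the same median. The tumor of 25L read 7.39, just below that of 25R. The groups were the same after quantile normalization, while without rescaling 25L entered the Pgr-high group in place of 32. The value of 42 lay under 5.31, the floor to which low values of all genes were raised, and it counts as 5.31 below. On the linear scale Pgr was 169 to 252 in Pgr-high and 22 to 136 in Pgr-low tumors, where the scaled median of an array was 162. Pgr was thus a gene of middling signal in the Pgr-high tumors and lay below the median in the Pgr-low ones. Of the estrogen receptors, Esr1 read 5.31 to 6.80 and Esr2 5.31 to 5.67 in Pgr-high tumors, against 5.31 to 6.03 for Esr1 and 5.31 to 5.93 for Esr2 in Pgr-low tumors, and neither passed the filter on dim genes, a mean of 6.35. These levels chose the groups or lie too near the floor, and none was tested.

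The tumor of series 42 stood apart from the other 10. It had 1036 genes more than 2-fold from the mean of the 11 tumors, against 111 to 253 in each of the others. Epcam, an adhesion protein of epithelial cells, read 6.00 in it and 10.89 to 12.01 in the other 10, and the keratin gene Krt18 was at the floor of 5.31 in it and at 9.78 to 11.60 elsewhere. Vim, the intermediate filament of mesenchymal cells, read 12.59 in the tumor of 42 and at most 11.47 in the rest. Epcam and Krt18 were thus strong in 10 tumors and at or near the floor in this one. Of the 18 tested luminal genes 8 were at the floor in the tumor of 42. Array medians before scaling were 159 to 167 in Pgr-high and 145 to 173 in Pgr-low tumors, and the log2 ratio of the 3′ to the 5′ Gapdh probe set, a sign of RNA quality, was -0.07 to 0.17 in Pgr-high and -0.03 to 0.37 in Pgr-low tumors. The counts over all genes, many lists and some single genes are given below with and without the tumor of 42. Where no value without it is stated, it is included.

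Areg, the companion marker of the grouping, was high in every Pgr-high tumor and mixed among the Pgr-low ones. It read 11.26, 11.45, 10.46, 10.89 and 10.86 in the Pgr-high tumors of 17, 33, 34, 32 and 25R, against 9.50, 11.07, 10.56, 6.91 and 5.31 in the Pgr-low tumors of 19, 13, 10, 36 and 42. The Pgr-low tumors of 13 and 10 lay inside the range of the Pgr-high ones, and those of 36 and 42 lay far below it. The mean was 10.99 ± 0.38 in Pgr-high and 8.67 ± 2.47 in Pgr-low tumors (SD, n = 5 each), a difference of 2.32 that was 1.48 without the tumor of 42 and 0.61 without those of 42 and 36. Areg was chosen with its pattern known, so no p-value is given for it in the primary tumors. It stayed among the genes of the fits over all genes below, and it was tested in the transplants.

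**Figure D1:**
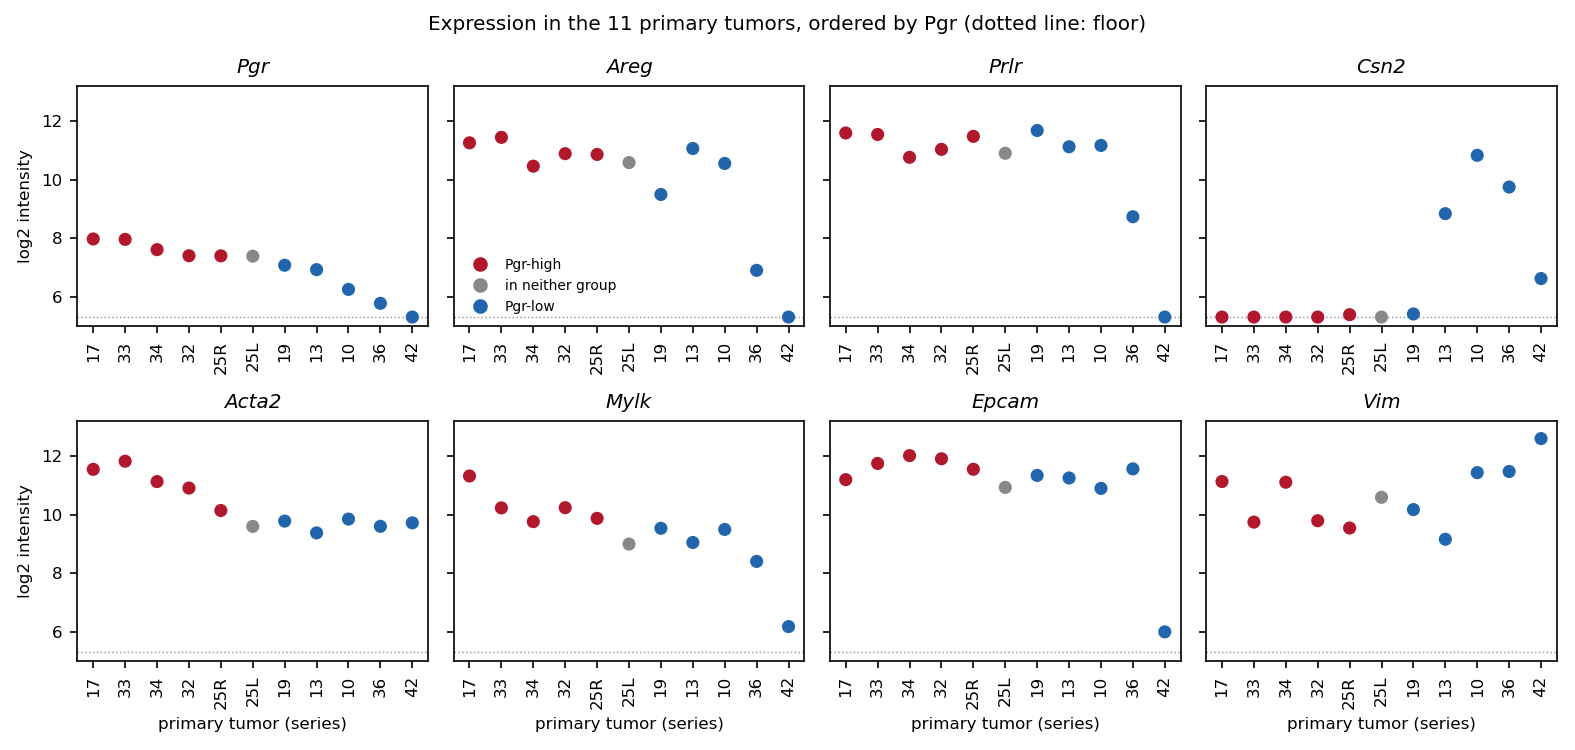
Log2 intensity (vertical axis) of 8 genes in the 11 primary tumors (horizontal axis), ordered from highest to lowest Pgr, 1 point per tumor, with Pgr-high tumors in red, 25L in grey and Pgr-low tumors in blue. Pgr declines from 7.98 in series 17 to the floor of 5.31 in series 42, Acta2 is above 10 in the Pgr-high tumors and below 10 in the rest, and Csn2 is above 6 in 4 Pgr-low tumors only.

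Across all genes no difference between Pgr-high and Pgr-low primary tumors passed the test. limma, with Benjamini-Hochberg adjustment over 8505 genes, called 0 genes (0%) at an adjusted p under 0.05, and the smallest adjusted p was 0.193. An unadjusted p under 0.05 was reached by 1583 genes (18.6%), of which 900 were higher (10.6%) and 683 lower (8.03%) in Pgr-high tumors. Of the 900 higher genes 337 had a mean log2 intensity under 8, and of the 683 lower genes 590 did, beside 4526 of all 8505 genes. The median difference was -0.03 for genes under 8, 0.15 for those at 8 to 10 and 0.13 for those over 10. After quantile normalization the share that was higher was 40.1%, in place of 56.9%, so the balance between directions depended on the scaling. The 2 groups did not overlap in 451 genes (5.30%), 239 of them higher (2.81%) and 212 lower (2.49%). Without the tumor of 42, limma again called 0 genes, 1617 had an unadjusted p under 0.05 (19.0%), and the groups did not overlap in 640 (7.52%), with 390 higher (4.59%) and 250 lower (2.94%). What follows gives values, none of which is a called change. The largest differences among genes with an unadjusted p under 0.05 and no overlap are named, 12 in each direction, and they were chosen for their size.

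Genes of the contractile machinery of myoepithelium led those with higher values in Pgr-high tumors. Acta2, the actin of smooth muscle and myoepithelium, encoded on chromosome 1, read 11.54, 11.82, 11.13, 10.91 and 10.14 in the Pgr-high tumors of 17, 33, 34, 32 and 25R, against 9.78, 9.38, 9.85, 9.60 and 9.72 in the Pgr-low tumors of 19, 13, 10, 36 and 42. The Pgr-low tumors lay within 0.5 of each other, the one of 42 among them, while the Pgr-high tumors spread over a wider range above them. Its difference was 1.44 ± 0.27 (SE), or 2.72-fold, with an adjusted p of 0.193, and it was 1.46 without the tumor of 42. Mylk, the kinase that starts smooth muscle contraction, averaged 10.28 ± 0.62 in Pgr-high and 8.53 ± 1.39 in Pgr-low tumors (SD, n = 5 each), a difference of 1.75 that was 1.16 without 42. The tumor of 25L, whose Pgr was nearly that of 25R, read 9.60 for Acta2 and 8.99 for Mylk, which are values of the Pgr-low range.

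The basal myoepithelium list had 14 tested genes, of which 13 had a positive and 1 a negative difference, with a median of 0.96 beside 0.07 over all genes, and 0.47 without the tumor of 42. Of its members 6 had an unadjusted p under 0.05 and a higher mean in Pgr-high tumors, beside 10.6% of all genes, and 3 were higher without overlap, beside 2.81% of all genes. Besides Acta2 and Mylk these were Myh11, the smooth muscle myosin, Cnn1, the actin-binding calponin, Tagln, another actin-binding protein, and Itga6, the integrin that holds basal cells to laminin. Myh11 read 10.52, 9.64, 6.07, 8.91 and 7.06 in the Pgr-high tumors in the same order, against 6.95, 5.49, 6.84, 5.72 and 6.70 in the Pgr-low tumors. It was far above the Pgr-low range in the tumors of 17, 33 and 32 and not in those of 34 and 25R. Cnn1 averaged 8.90 ± 0.94 in Pgr-high and 7.25 ± 0.99 in Pgr-low tumors (SD, n = 5 each). Itga6 lay at 8.43 to 9.44 in Pgr-high and at 7.47 to 8.41 in Pgr-low tumors. The basal keratin Krt5 stood at 11.39 to 11.81 in Pgr-high tumors and at 11.05 to 11.47 in Pgr-low tumors other than that of 42, which read 6.13.

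Laminins, proteins of the sheet on which basal cells rest, also had higher means in Pgr-high tumors. Lama5 averaged 9.49 ± 0.50 in Pgr-high and 8.61 ± 0.34 in Pgr-low tumors (SD, n = 5 each), and these ranges did not overlap. Lamc1 averaged 10.26 ± 0.45 in Pgr-high and 9.18 ± 0.84 in Pgr-low tumors. Of 12 tested basement membrane genes 11 had a positive and 1 a negative difference, with a median of 0.36, and 0.22 without the tumor of 42. The 10 tested endothelial genes were lower in the mean of the Pgr-high tumors, with a median of -0.26, which lay between -0.39 and -0.17 as single tumors were left out. The part of vessels and their smooth muscle in the contractile genes was not tested. These are whole tumors, in which fewer cells of a type and less RNA per cell cannot be told apart.

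The other genes named for higher values in Pgr-high tumors were Matn2, a matrix adaptor protein, the kinase Plk2, the surface proteoglycan Sdc4, the adhesion protein Mpzl2, Jag2, a ligand of Notch receptors, Serinc2, Tpd52l1, the membrane protein Tmem123, the hydrolase Bphl, and Stat5b. Their differences were 0.98 to 1.40 with the tumor of 42 and 0.55 to 0.94 without it, and their adjusted p values lay between 0.193 and 0.264. Jag2 read 8.49 to 9.40 in Pgr-high and 6.49 to 8.44 in Pgr-low tumors. For Plk2, Sdc4, Mpzl2, Serinc2 and Tpd52l1 the tumor of 42 was the lowest of its group by a wide margin, and the other Pgr-low tumors still lay below the Pgr-high ones.

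Csn2, which encodes the milk protein beta-casein on chromosome 14, had the largest difference in the opposite direction. It was at the floor of 5.31 in the Pgr-high tumors of 17, 33, 34 and 32 and at 5.40 in that of 25R, against 5.42, 8.84, 10.83, 9.75 and 6.63 in the Pgr-low tumors of 19, 13, 10, 36 and 42. It was thus at or next to the floor in every Pgr-high tumor and in 25L and 19, and clearly above it in 4 of 5 Pgr-low tumors. The means differed by -2.96 ± 0.86 (SE), 7.81-fold lower in Pgr-high tumors, a size that the floor understates, with an adjusted p of 0.193. Csn1s1, alpha-S1-casein, read 8.60, 11.97, 7.95, 9.65 and 12.08 in the Pgr-high tumors in the order above, against 10.66, 12.05, 12.50, 13.06 and 10.98 in the Pgr-low tumors. Its groups overlapped, since the Pgr-high tumors of 33 and 25R lay within the range of the Pgr-low ones. Wap, the whey acidic protein, was at the floor in all 5 Pgr-high tumors, against 8.49 and 7.21 in the Pgr-low tumors of 10 and 36 and the floor in those of 19, 13 and 42, and it did not pass the filter. Other milk genes did not follow this order. Csn3, kappa-casein, read 11.31 to 13.15 in Pgr-high and 9.59 to 12.94 in Pgr-low tumors, and the 12 tested genes of the milk secretion list split into 6 positive and 6 negative differences with a median of 0.00, which moved to -0.32 without the tumor of 42 and to 0.36 without that of 32.

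Among the genes through which prolactin acts, Stat5b, Stat5a and Jak2 had higher means in Pgr-high tumors, and none was called. Stat5b read 7.86, 8.10, 7.88, 7.64 and 7.77 in the Pgr-high tumors, against 7.07, 7.42, 6.47, 7.31 and 6.06 in the Pgr-low tumors, with no overlap and a difference of 0.98 ± 0.25 (SE, adjusted p 0.193). Stat5a averaged 9.54 ± 0.33 in Pgr-high and 8.85 ± 0.37 in Pgr-low tumors (SD, n = 5 each). Jak2 averaged 8.42 ± 0.37 in Pgr-high and 7.48 ± 0.67 in Pgr-low tumors, and its groups overlapped because the Pgr-low tumor of 36 read 8.56. Of 7 tested genes of the prolactin list 5 had a positive and 2 a negative difference, with a median of 0.50, and 0.32 without the tumor of 42. The prolactin receptor Prlr read 11.60, 11.55, 10.77, 11.04 and 11.48 in the Pgr-high tumors, against 11.68, 11.13, 11.17, 8.74 and 5.31 in the Pgr-low tumors. Its difference of 1.68 came from the tumors of 36 and 42 and was -0.04 without them.

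Genes known to respond to estrogen and progesterone had a median near that of all genes. Of 22 tested genes, 13 had a positive and 9 a negative difference, the median was 0.06, and 0 had groups that did not overlap, where 5.30% of all genes did, which for a list of this length is near the background. The median lay between 0.07 and 0.15, the highest without the tumor of 33, as each tumor was left out in turn. Wnt4 averaged 8.79 ± 0.80 in Pgr-high and 8.05 ± 1.37 in Pgr-low tumors (SD, n = 5 each), a difference of 0.74 that was 0.16 without the tumor of 42 and -0.03 without those of 42 and 36. Tnfsf11, the RANK ligand, was at 6.22 to 6.56 in Pgr-high tumors, against 6.39, 8.82, 7.09, 6.65 and 6.81 in the Pgr-low tumors of 19, 13, 10, 36 and 42. Its highest value was thus in the Pgr-low tumor of 13. Igfbp5, a binding protein of insulin-like growth factors, averaged 11.39 ± 0.63 in Pgr-high and 11.72 ± 0.37 in Pgr-low tumors.

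Among the steroid receptors and their partners, 6 of 8 tested genes had a positive and 2 a negative difference, with a median of 0.16 that lay between 0.04, without the tumor of 42, and 0.24, without that of 19. Gata3, a luminal transcription factor, averaged 8.61 ± 0.80 in Pgr-high and 7.47 ± 0.87 in Pgr-low tumors (SD, n = 5 each), with an adjusted p of 0.241. Foxa1, which opens chromatin for the estrogen receptor, was on the other side, at 6.25 ± 0.18 in Pgr-high and 6.76 ± 0.20 in Pgr-low tumors, with an adjusted p of 0.193. Foxa1 was dim throughout, lowest at 6.02 in the Pgr-high tumor of 25R and highest in the Pgr-low tumor of 42.

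**Figure D2:**
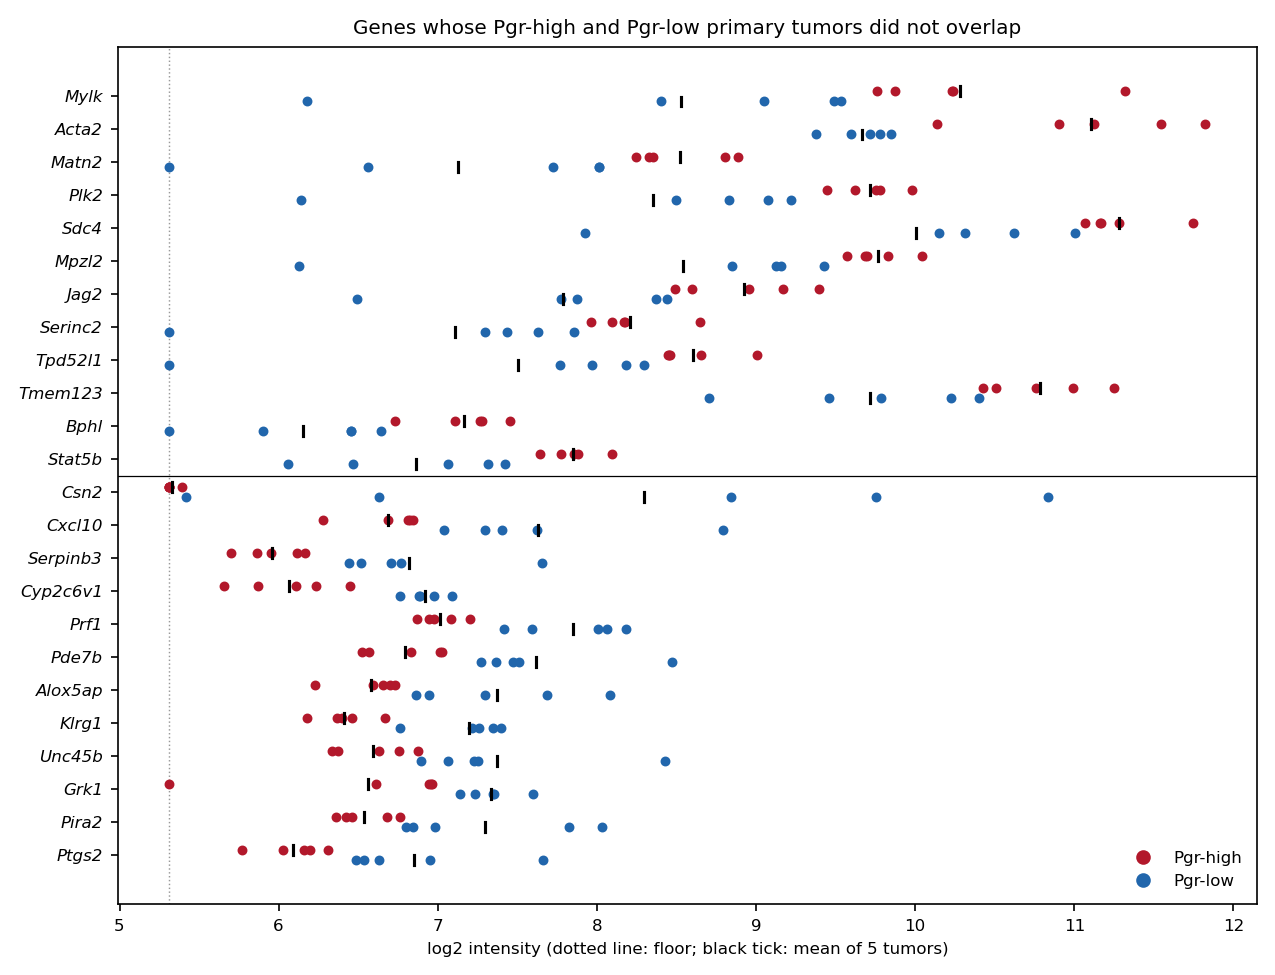
Log2 intensity (horizontal axis) of the 24 named genes (vertical axis) in each of the 5 Pgr-high (red, upper row of each gene) and 5 Pgr-low (blue, lower row) primary tumors, with black ticks at the group means. The 12 genes above the line are higher in the Pgr-high tumors and the 12 below it are lower, the groups of each gene do not overlap, and no gene passed the adjusted threshold.

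The remaining genes named for lower values in Pgr-high tumors were mostly dim. Cxcl10 is a chemokine induced by interferon, Prf1 the pore-forming protein of killer cells, Klrg1 a receptor of killer and T cells, Alox5ap a partner of 5-lipoxygenase in myeloid cells, Pira2 a myeloid receptor and Ptgs2 the inducible cyclooxygenase. Prf1 read 6.94, 6.87, 7.20, 6.98 and 7.09 in the Pgr-high tumors, against 8.06, 7.59, 8.01, 7.42 and 8.18 in the Pgr-low tumors, a difference of -0.84 ± 0.16 (SE, adjusted p 0.193). The Pgr-high tumors were alike and each Pgr-low tumor lay above them, the differences being smaller than 2-fold in the mean. Serpinb3, Cyp2c6v1, Pde7b, Unc45b and Grk1 completed the 12, and the differences of all but Csn2 lay between -0.94 and -0.76.

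Markers of macrophages pointed the same way with larger spread. Tyrobp, a signalling adaptor of myeloid cells, averaged 8.70 ± 0.24 in Pgr-high and 9.57 ± 0.58 in Pgr-low tumors (SD, n = 5 each). Of 13 tested macrophage genes 1 had a positive and 12 a negative difference, with a median of -0.50, and -0.28 without the tumor of 42. Their summed intensity was 5845 to 7943 in Pgr-high and 6832 to 19275 in Pgr-low tumors, where it reached 11139 without 42. The beta-globin gene Hbb, of red blood cells, averaged 11.02 ± 0.63 in Pgr-high and 12.04 ± 0.49 in Pgr-low tumors, and the 4 tested red blood cell genes had a summed intensity of 1771 to 4044 in Pgr-high and 2869 to 6433 in Pgr-low tumors. The T and NK cell list had 1 positive and 8 negative differences among 9 tested genes, with a median of -0.14 that lay between -0.25 and -0.09 as single tumors were left out. Not all immune lists followed. Interferon response genes had 10 positive and 9 negative differences with a median of 0.04, and antigen presentation genes 14 positive and 4 negative with a median of 0.12. Mast cell genes had 4 positive and 2 negative with a median of 0.41, and granulocyte genes 1 positive and 1 negative with a median of 0.10. The part of blood and immune cells in the differences of other genes was not tested.

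Luminal epithelial genes were higher in the mean of the Pgr-high tumors in 18 of 18 tested genes, with a median difference of 1.20 that was 0.44 without the tumor of 42. The 18 genes summed to an intensity of 28809 to 40415 in Pgr-high tumors, against 21247 to 31686 in the Pgr-low tumors other than that of 42, which had 1748. Muc1, an apical mucin, read 8.45, 8.92, 8.35, 7.98 and 8.19 in the Pgr-high tumors, against 7.46, 8.27, 7.33, 7.74 and 5.89 in the Pgr-low tumors. Igfbp2, a binding protein of insulin-like growth factors, averaged 11.44 ± 0.34 in Pgr-high and 9.45 ± 2.33 in Pgr-low tumors (SD, n = 5 each), with 5.31 in the tumor of 42 and 10.17 to 10.96 in the other 4. The insulin-like growth factor list as a whole did not follow it. Of its 11 tested genes 2 had a positive and 9 a negative difference, with a median of -0.20. Without the tumor of 42 there were 5 positive and 6 negative, with a median of -0.02.

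Matrix genes of fibroblasts were lower in the mean of the Pgr-high tumors but varied as much within the groups. Of 24 tested genes 3 had a positive and 21 a negative difference, with a median of -0.81. This median was -0.19 without the tumor of 10, -0.37 without that of 32 and -1.24 without that of 19. Col1a1, a chain of type I collagen, read 12.08, 9.66, 11.23, 8.43 and 8.65 in the Pgr-high tumors, against 8.47, 10.37, 13.04, 11.74 and 11.07 in the Pgr-low tumors. High and low collagen thus occurred in both groups. The mesenchymal list had 2 positive and 12 negative differences among 14 tested genes, with a median of -0.72, and -0.33 without the tumor of 42.

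The lists of cell division and metabolism are given with and without the tumor of 42. Of 15 tested mitosis genes 1 had a positive and 14 a negative difference with a median of -0.08. Without the tumor of 42 there were 10 positive and 5 negative with a median of 0.02, and the median was -0.30 without that of 13 and -0.27 without that of 34. Of 20 DNA replication genes 10 were positive and 10 negative with a median of 0.01, and 17 were positive and 3 negative with a median of 0.16 without the tumor of 42. Proteasome genes had 21 positive and 3 negative differences with a median of 0.16, which was 0.03 after quantile normalization, and without the tumor of 42 all 24 were positive with a median of 0.23, beside 0.10 over all genes. Genes of oxidative phosphorylation had 24 positive and 7 negative differences with a median of 0.12, which was 0.01 after quantile normalization, and without the tumor of 42 there were 30 positive and 1 negative with a median of 0.26, 7 of them at an unadjusted p under 0.05, which 19.0% of all genes reached in either direction without that tumor. Genes of hypoxia and glycolysis lay above the 11-tumor mean by 0.82 in the Pgr-high tumor of 34 and by 0.66 in that of 32, against 0.90 in the Pgr-low tumor of 36 and 0.20 in that of 19, and lay below it in the other 7 tumors.

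**Figure D3:**
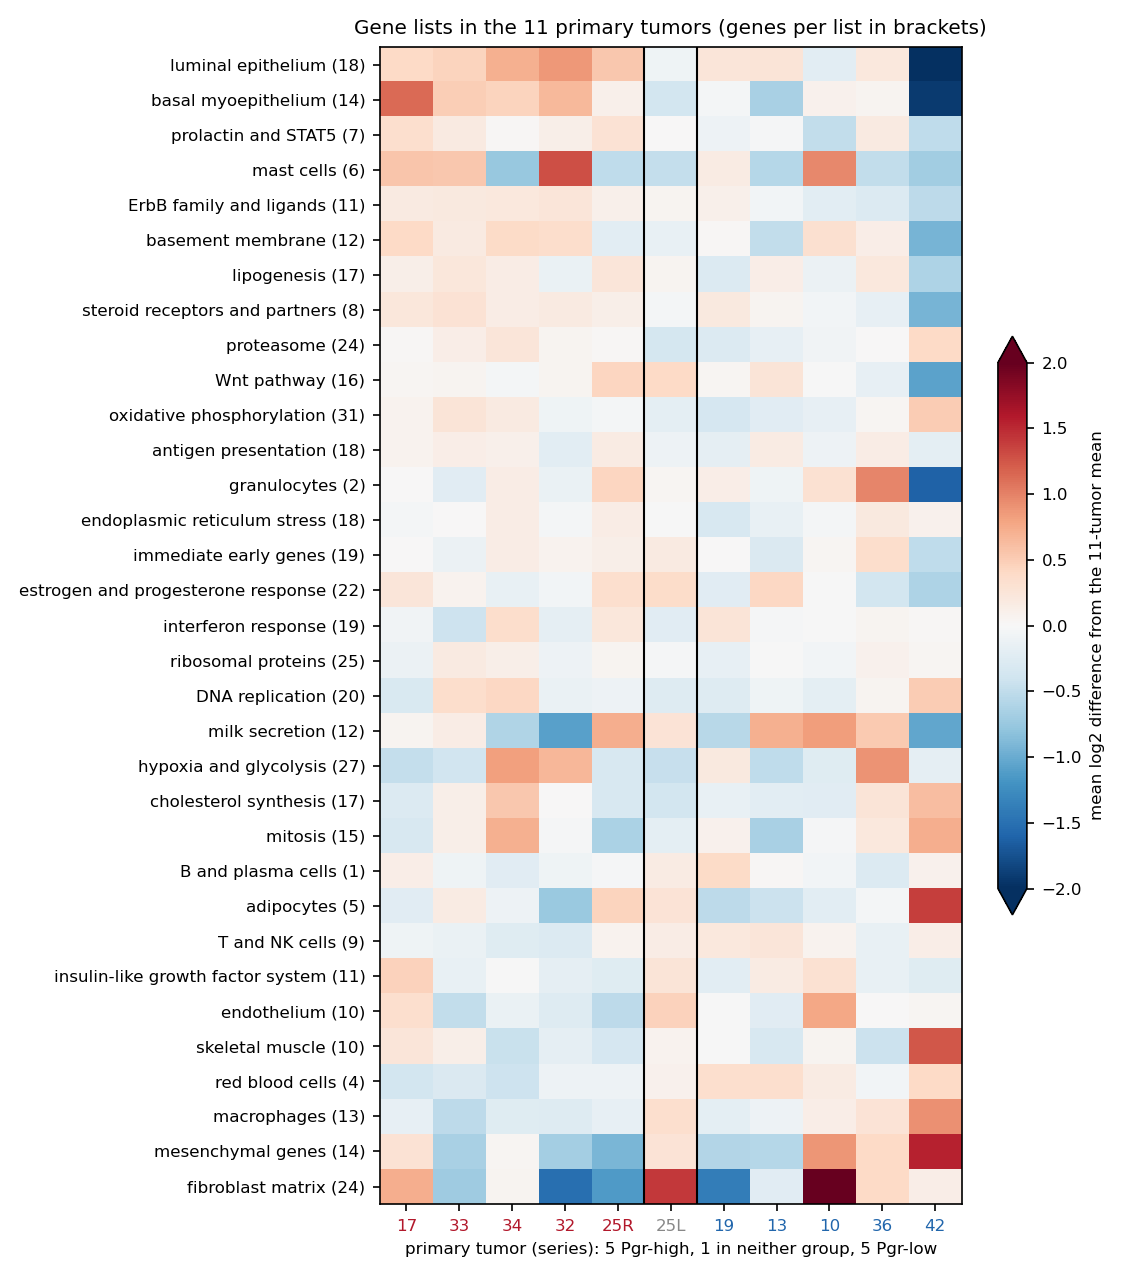
Mean log2 difference from the 11-tumor mean (color, red above and blue below) of 33 gene lists (rows, tested genes in brackets) in the 11 primary tumors (columns, from highest to lowest Pgr, with lines around 25L). The luminal and basal myoepithelial rows are lowest in series 42, and the fibroblast matrix row runs from -1.51 in series 32 to 2.22 in series 10 with no order by Pgr.

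A fit over all 11 primary tumors with Pgr as a continuous value gave a different count, and that count came with the tumor of 42. It called 710 of 8505 genes (8.35%), 511 with a positive slope (6.01%) and 199 with a negative one (2.34%). Of the luminal list 13 of 18 genes were called, all with positive slopes, of the basal list 5 of 14, of the Wnt pathway 6 of 16, and of the macrophage list 7 of 13, all of the last with negative slopes. Muc1 changed by 0.69 and Mylk by 1.13 on the log2 scale per log2 unit of Pgr, with adjusted p of 0.00593 for Muc1 and 0.00446 for Mylk by limma. Without the tumor of 42 the same fit called 0 genes, with 659 at an unadjusted p under 0.05 (7.75%) and a smallest adjusted p of 0.181. With the tumor of 42 kept but its Pgr raised to the floor, it called 23.

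The primary tumors also differed among themselves. The median SD of a gene over the 11 tumors was 0.29 on the log2 scale, and 0.26 over the 10 without that of 42. The 10 most variable genes were Csap1, Gp2, Acta1, Orm1, Mup5, Csn2, Mfap4, Krt19, Lum and Areg. Krt19, Gp2 and Acta1 owed their place to the tumor of 42: without it their SD was 0.77 for Krt19, 1.09 for Gp2 and 1.13 for Acta1, where over all 11 it was 2.02 to 2.19. Without 42, matrix genes (Dcn, Lox and Dpt) and the casein gene Csn1s1 took the places of Gp2, Acta1, Krt19 and Areg.

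High values of the variable genes lay in 1 or a few tumors. Csap1 read 11.31 in the Pgr-high tumor of 34, against 11.69 and 11.83 in the Pgr-low tumors of 10 and 36, and was at the floor in those of 19 and 42. Orm1, an acute-phase glycoprotein, read 12.11 in the tumor of 36, and the highest value elsewhere was 9.24 in that of 25R. The tumor of 36 also had the inflammatory genes Il1b at 10.9, Cxcl2 at 10.5, Cxcl1 at 11.1, Slpi at 11.8 and Sod2 at 11.7, and each was at least 2 log2 units above every other primary tumor. The tumor of 10 had the highest values of Lum and Mfap4, 2 matrix genes, at 11.39 and 11.46, followed by that of 25L at 11.23 and 10.55, and both genes were at the floor of 5.31 in the tumors of 32 and 19. In the tumor of 42, 96 genes lay at least 2 log2 units below every other primary tumor, among them Cdh1, Krt8 and Cldn3 of epithelial cells, and 29 lay as far above, among them the growth factor receptor gene Met, the muscle genes Des and Itga7, and H19. In series 17, 33, 34, 25R, 25L, 19 and 13 no gene stood this far from the other tumors. These single-tumor genes were named after their values were seen and have no replicate.

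Likeness between tumors was found within and across the Pgr groups. Each tumor's deviations from the 11-tumor mean were correlated across the tested genes, which share that mean and are not independent replicates. The highest correlation, 0.41, joined the Pgr-high tumor of 25R with the Pgr-low tumor of 13, and the next, 0.36, joined the Pgr-high tumor of 34 with the Pgr-low tumor of 36. The Pgr-high tumors of 33 and 34 followed at 0.34. Of the 10 pairs of Pgr-high tumors 8 had a positive correlation, with a median of 0.14, of the 10 pairs of Pgr-low tumors 4 did, with a median of -0.10, and of the other 35 pairs, those with 25L included, 9 did, with a median of -0.18. The lowest, -0.51, was between the Pgr-high tumor of 25R and the Pgr-low tumor of 42.

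The transplants, which the grouping did not use, gave independent values for the same lines. Pgr averaged 6.24 ± 0.36 in the transplants of Pgr-high lines and 6.06 ± 0.69 in those of Pgr-low lines (SD over 5 line means each), a difference of 0.18 with an exact two-sided permutation p of 0.635, where the smallest possible is 0.00794. Over transplants 1 and 2 alone the difference was 0.58 (exact p 0.262), and over transplants 4 and 5 it was -0.04 (exact p 0.952). The Pgr-low line of 10 has no transplant 5 and entered the latter with transplant 4 alone. Without the line of 42 the difference was -0.0046 and the exact p 0.976. The line means were 5.72, 6.54, 6.04, 6.36 and 6.54 for the Pgr-high lines of 17, 33, 34, 32 and 25R, against 6.78, 6.80, 5.80, 5.60 and 5.31 for the Pgr-low lines of 19, 13, 10, 36 and 42. The highest line means were thus those of 2 Pgr-low lines, and the transplant mean lay below the primary tumor in all 5 Pgr-high lines and in 4 of 5 Pgr-low ones. The primary values chose the groups, so this count is a description. Areg averaged 8.36 ± 0.79 in the transplants of Pgr-high lines and 7.79 ± 1.68 in those of Pgr-low lines (SD over 5 line means each, exact permutation p 0.556), differing by 1.02 over transplants 1 and 2 (exact p 0.357) and by 0.06 over transplants 4 and 5 (exact p 0.960), and without the line of 42 the difference was -0.05 (exact p 0.929). Pgr was at the floor in 9 of 25 transplant arrays of Pgr-high lines and in 8 of 24 of Pgr-low lines.

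**Figure D4:**
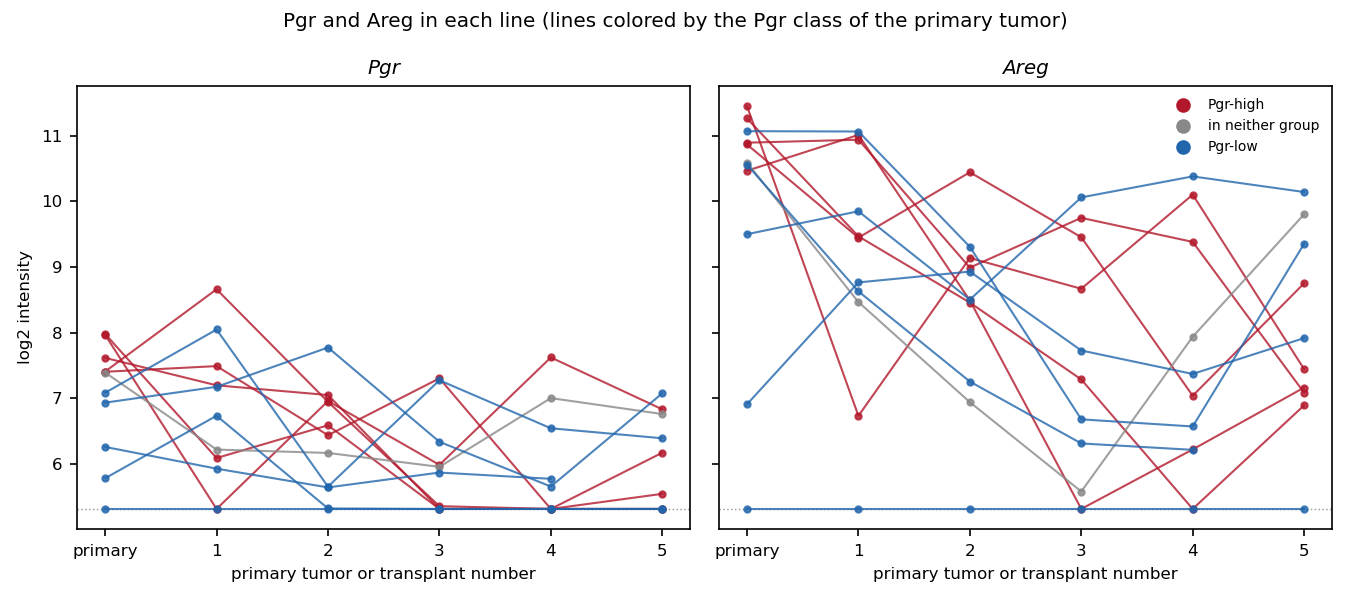
Log2 intensity (vertical axis) of Pgr and Areg in the primary tumor and in transplants 1 to 5 (horizontal axis) of each of the 11 lines, colored by the Pgr class of the primary tumor (red Pgr-high, grey 25L, blue Pgr-low). The line of series 10 has no transplant 5. The line of series 42 stays at the floor of 5.31 throughout in both genes. The other red and blue lines cross from transplant 1 on in Pgr, and in Areg they already overlap in the primary tumors.

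Over all genes, 0 of 8506 were called between the transplants of Pgr-high and of Pgr-low lines (0%), 168 had an unadjusted p under 0.05 (1.98%), and the groups did not overlap in 19, of which 5 were higher (0.0588%) and 14 lower (0.165%). As 1 line was left out, the count at an unadjusted p under 0.05 was 336 without 36, 311 without 33, 89 without 10 and 79 without 32, between 114 and 215 without another single line, and it was 649 without 42 and 36. Dpt, a matrix protein that binds decorin, had the largest difference of these, with line means of 7.95 to 10.33 in Pgr-high lines against 6.21 to 7.36 in Pgr-low lines, a difference of 2.13 ± 0.44 (SE, adjusted p 0.999 by limma). The others that were higher were Pde8a, Gas7, Ptpn13 and Rexo2, by 0.31 to 1.18, and the 6 largest that were lower were Mas1, Dnase1l3, Kat14, Cxcr3, Gemin2 and Pex10, by -0.44 to -0.24. In the primary tumors Dpt averaged 6.81 ± 1.13 in Pgr-high and 7.35 ± 1.96 in Pgr-low tumors.

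The leading genes of the primary tumors had smaller differences in the transplants. They were chosen for their size in the primary tumors, so a smaller difference in other values can follow from the choice alone. A line mean also averages several arrays, where a primary tumor has 1. Acta2 averaged 10.60 ± 0.49 in the transplants of Pgr-high lines and 9.70 ± 1.22 in those of Pgr-low lines (SD over 5 line means each), a difference of 0.90 with an adjusted p of 0.999. The Pgr-low line of 13, which had the lowest Acta2 among the primary tumors, had the highest line mean of all 10 in the transplants, at 11.77. Csn2 averaged 6.39 ± 1.38 in Pgr-high and 7.53 ± 1.85 in Pgr-low lines, and the Pgr-high line of 33, at the floor in its primary tumor, had a transplant mean of 8.72. Stat5b averaged 7.20 ± 0.34 in Pgr-high and 7.24 ± 0.50 in Pgr-low lines. Some list medians changed sign instead. The median of the fibroblast matrix list was 1.08 in the transplants, with 23 of 24 genes positive, where it was -0.81 in the primary tumors. Of these genes 17 were higher at an unadjusted p under 0.05, beside 1.98% of all genes in either direction, and 0 were called. The mesenchymal list had 13 positive and 1 negative difference with a median of 0.47, in place of -0.72. The macrophage list had 11 positive and 2 negative with a median of 0.30, in place of -0.50.

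The difference of these differences was itself tested within lines. Of 8505 genes 1 was called (0.0118%), Tyrobp, and 1521 had an unadjusted p under 0.05 (17.9%). Its line means in the transplants were 9.55 ± 0.27 in Pgr-high and 9.21 ± 0.66 in Pgr-low lines (SD over 5 line means each), a difference of 0.34 beside -0.87 in the primary tumors. The interaction was -1.22 with an adjusted p of 0.0110 by limma, and 0.0542 without the line of 42. Of the basal, casein and prolactin pathway genes named above none passed this test.

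**Figure D5:**
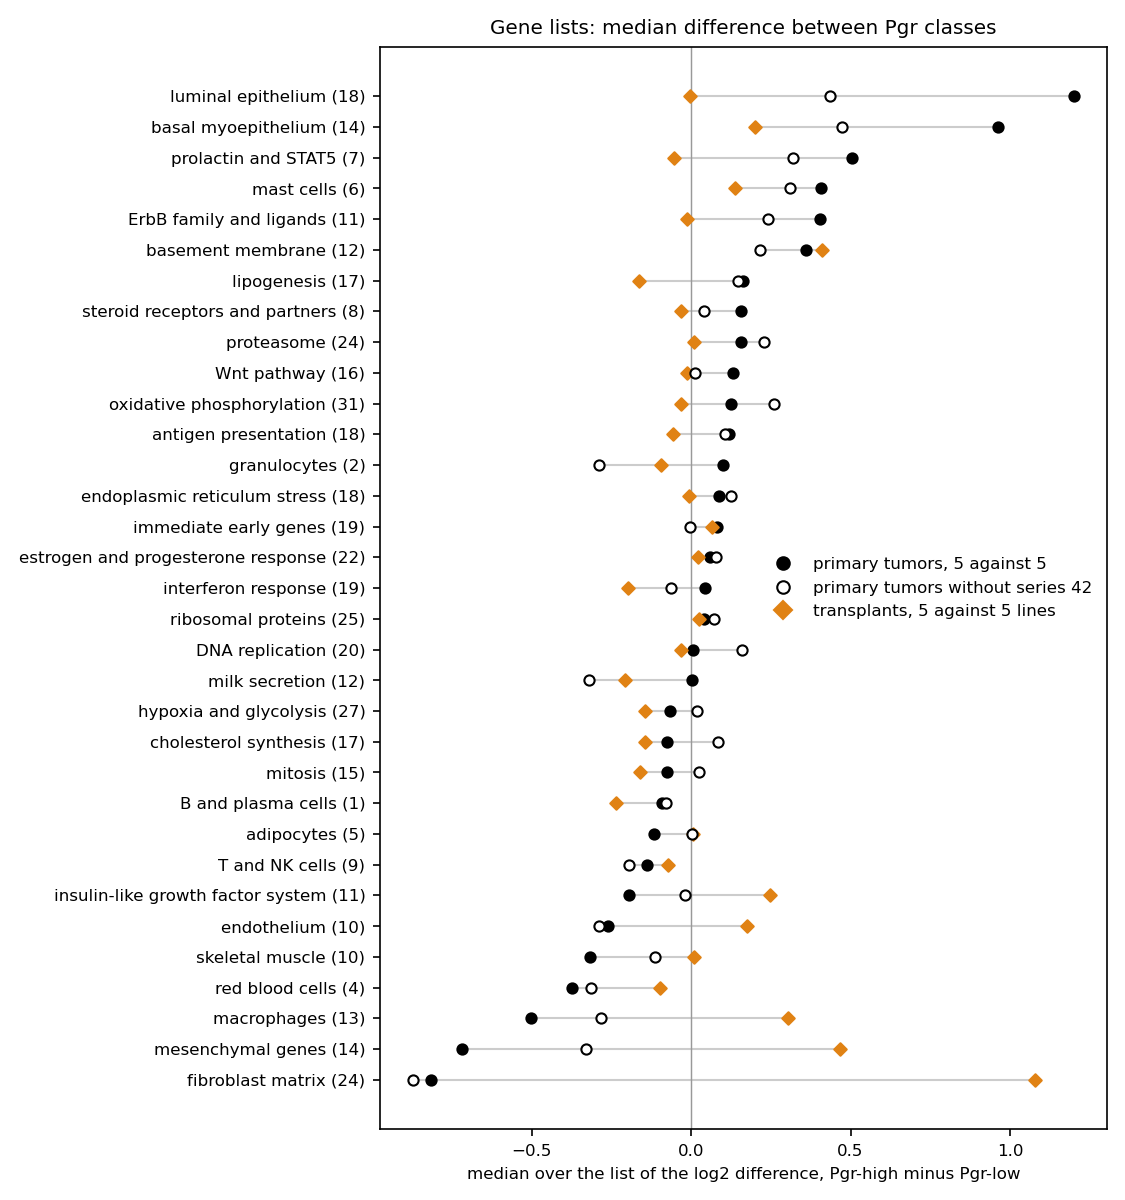
Median over each gene list (rows, tested genes in brackets) of the log2 difference Pgr-high minus Pgr-low (horizontal axis), for the primary tumors (filled circles), the primary tumors without series 42 (open circles) and the transplants (diamonds). The luminal median is 1.20, 0.44 and 0.00 in these 3 comparisons, and the fibroblast matrix median is -0.81, -0.87 and 1.08.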

How the data were processed

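Total RNA of 65 frozen tumors was labelled with biotin and hybridised to 1 array each, per the labels. The authors deposited probe set intensity values on a linear scale, and their probe summary and normalization are not given in the sources used here. Control probe sets (57) were removed, the medians of the remaining 15866 were made equal at 162 on all arrays, anything below 39.8 (the 10th percentile of all values pooled) was raised to it, and log2 was taken. Of the 15866, 12783 probe sets had 1 gene symbol in the platform annotation, 312 several and 2771 none, and 12748 matched RefSeq on GRCr8. A gene was read from its brightest probe set over the primary tumors, and 8506 of 10411 genes above the lowest 25% were tested, 8505 without Pgr. limma 3.58.1 in R 4.3.3 (lmFit, eBayes, Benjamini-Hochberg, two-sided, 0.05) compared primary tumors and means of each line's transplants, and exact permutation tests over lines compared Pgr and Areg. The test was checked on simulated data.

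Named genes were the 12 largest differences in each direction called without overlap or, where too few were called, with an unadjusted p under 0.05 and no overlap (6 in the transplants, where 5 were higher), the 10 largest SDs, and fixed hormone genes. Most other list members named had an unadjusted p under 0.05 or are defining markers. All of these other members and the most variable genes without 42 were chosen after their values were seen. The members and the 33 lists were chosen with earlier results of these data known. Group sizes limit the precision of arrays, and p-values measure only the spread between these tumors. Line numbers do not pair tumors between the 2 groups.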

Additional observations from a re-analysis of the deposited data

Results flagged for a closer look

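Dixon's criterion for a value far from the other 4 was applied to 68 groups of 5 tumors or line means. Its chance rate of about 1 group in 20 holds for independent, unselected values. The genes here were mostly chosen for their differences, share the same tumors and include values at the floor. The count therefore cannot be set against that rate. By the criterion, 13 groups held a tumor far from the other 4. In 7 of them it was the Pgr-low primary tumor of series 42, which read 6.14 for Plk2, 7.93 for Sdc4, 6.13 for Mpzl2, 5.31 for Serinc2 and 5.31 for Tpd52l1, below the other Pgr-low tumors, and 8.47 for Pde7b and 8.43 for Unc45b, above them. Among Pgr-high tumors, Cxcl10 read 6.28 in series 17, Alox5ap 6.23 in series 33 and Grk1 5.31 in series 25R, each below the other 4, and Csn2 read 5.40 in series 25R where the other 4 were at the floor. Among Pgr-low tumors, Serpinb3 read 7.65 in series 36 and Tnfsf11 8.82 in series 13, each above the other 4.

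The difference of Tyrobp between Pgr-high and Pgr-low differed between primary tumors and transplants, with an interaction of -1.22. This call depended on single lines: no gene was called without the line of 42, 17, 32 or 10, or with 25L in place of 25R.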

How the results depend on the processing

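The count of genes called between Pgr-high and Pgr-low primary tumors, 0, and the count in the transplants, 0, did not move under other floors, filters or normalizations, or the omission of any 1 tumor or line or of 42 and 36 together. For the primary tumors it was also 0 with array weights and with the Gapdh ratio as covariate, which were not run for the transplants. With the line as a replicate block over 49 arrays the transplant count was 0, with 218 genes at an unadjusted p under 0.05. Pgr as a covariate gave 710. That slope count ranged from 0 to 926 as 1 tumor was left out (0 without 42, 434 without 25R), and was 0 without 42 and 36 and 23 with Pgr at the floor in 42. The interaction count of 1 was 3 with the floor at the 20th percentile, 2 with the filter at the median, 2 after quantile normalization, 3 without rescaling, 0 with 25L in place of 25R, 0 without 42 and 36, and 0 to 10 as 1 line was left out (0 without 42, 17, 32 or 10, and 10 without 36).

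The transplant difference was 0.582 for Pgr and 1.02 for Areg over transplants 1 and 2. That of Pgr reversed to -0.041 over transplants 4 and 5, -0.125 with medians and -0.220 without 42 and 36, and ranged from -0.0046 to 0.367 as 1 line was left out. The difference of Areg was -0.135 without 42 and 36 and ranged from -0.047 to 1.07. Without 42 and 36 the primary tumor differences of Prlr (-0.041) and Wnt4 (-0.034) reversed. For 41 named genes, 878 of 880 alternative values kept their direction and side of the threshold, and the lowest adjusted p was 0.0543. Most of these genes were chosen from those whose groups did not overlap, so leaving out 1 tumor or line could not reverse them. None was called in the main fits, so keeping the side of the threshold means staying uncalled. The count is therefore no measure of robustness. The cause of the moves and reversals above was not tested. The settings without 42 and 36, with 25L, and with Pgr at the floor were chosen after seeing the data. Averaging 25L with 25R was not run, since 25L was in neither group, nor was another Pgr probe set, since there was 1.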
